A study of Mus musculus with 23 samples.

Results

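The B cell identity genes examined in mouse lung were Cd79a, Cd79b, Ms4a1, Cd22, Fcmr, Pax5, Cr2 and Fcer2a. They were taken by gene symbol from the deposited table, in which all 8 were found among 35322 genes listed. The choice names genes and sets no threshold on a value, but it was made with earlier results of these data known. The samples were lungs of 13 week old female BALB/c offspring. Dams of the PM groups received PM2.5, fine airborne particles, through the nose before mating, in gestation and until weaning, and Sham dams received saline on the same schedule. Sham-OVA and PM-OVA offspring were sensitised and then challenged with ovalbumin (OVA) as a model of allergic airways disease (AAD), whereas Sham and PM offspring received saline or PBS in its place. RNA-Seq libraries came from 7 Sham, 7 PM, 5 Sham-OVA and 4 PM-OVA offspring, taken after lung function tests and lavage. The sources used here do not tie offspring to dams, so p-values measure the spread between offspring and take no account of litters.

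B cells recognise antigen through a surface immunoglobulin, the B cell receptor, which signals into the cell through the chains encoded by Cd79a and Cd79b. Co-receptors raise or lower that signal, and the transcription factor encoded by Pax5 holds the cell in the B lineage until it differentiates. Plasma cells, the antibody-secreting end of the lineage, switch Pax5 and many B cell surface genes off. In AAD, B cells give rise to the allergen-specific IgE that arms mast cells and basophils. In a bulk lung sample, fewer B cells and less of a transcript per B cell cannot be told apart.

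The genes lie on 6 chromosomes of GRCm38 in the GENCODE annotation: Cd79a at chr7:24897381-24902197, Cd79b at chr11:106311341-106314762, Ms4a1 at chr19:11249675-11266241, Cd22 at chr7:30865402-30880342, Fcmr at chr1:130865669-130880791, Pax5 at chr4:44524757-44710487, Cr2 at chr1:195136811-195176716 and Fcer2a at chr8:3681737-3694175. Exons of Cd22 and Pax5 overlap those of other annotated genes, and whether reads were assigned by strand was not stated, so their values may hold reads of those neighbours. The 250 bases before the RefSeq start of 3 of the members are shown in GRCm38.p6: Cd79a, which encodes the partner chain of Cd79b, Cd22, and Cr2, the member with the lowest level per length. Cd79a stands at chr7:24897247-24897496 on the plus strand, Cd22 at chr7:30879029-30879278 and Cr2 at chr1:195176720-195176969, both on the minus strand. By the GENCODE coordinates above, the Cd22 window lies wholly inside the gene, and the Cd79a window runs past the annotated start into the gene. The Cr2 window lies wholly before the annotated start. Capitals mark matches, on either strand, to an E-box (CAGGTG) or to an EBF-type sequence (TCCCNNGGG), which overlaps itself once in Cd22.
Cd79a: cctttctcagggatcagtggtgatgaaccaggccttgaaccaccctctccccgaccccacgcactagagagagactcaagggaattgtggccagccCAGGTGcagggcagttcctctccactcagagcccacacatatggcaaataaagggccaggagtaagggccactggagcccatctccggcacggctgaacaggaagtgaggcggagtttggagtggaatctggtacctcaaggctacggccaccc
Cd22: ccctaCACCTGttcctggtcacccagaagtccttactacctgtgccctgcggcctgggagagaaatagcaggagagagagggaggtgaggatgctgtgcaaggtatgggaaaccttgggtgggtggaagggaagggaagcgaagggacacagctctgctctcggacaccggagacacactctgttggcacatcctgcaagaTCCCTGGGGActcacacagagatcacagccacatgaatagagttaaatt
Cr2: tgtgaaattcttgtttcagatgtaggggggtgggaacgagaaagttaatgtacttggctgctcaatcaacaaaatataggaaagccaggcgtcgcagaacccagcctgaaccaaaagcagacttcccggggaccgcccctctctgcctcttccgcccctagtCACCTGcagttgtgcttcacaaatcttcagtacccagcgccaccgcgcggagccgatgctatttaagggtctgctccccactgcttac
Of all 32851 RefSeq starts, 17.2% held this E-box and 5.6% this EBF-type sequence in the same window. The reference held 8 starts of 6 members, 3 of them of Fcer2a, and 4 of the 8 starts held the E-box and 1 the EBF-type sequence. The 3 starts shown all held the E-box, whereas those of Fcmr and Pax5, not shown, held neither sequence. Whether these letters bear on the levels of the members was not tested. The octamer ATGCAAAT, GAGGAAGT (PU.1) and TTCNNNGAA (STAT) matched none of the 8, against 1.6%, 2.44% and 7.02% of all starts, which says only that these letters are not in those windows.

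Levels are given in RPM, the reads on a gene scaled to library depth, as deposited. Reads on genes ranged from 13089691 to 17393579 in the 14 saline libraries, from 2298645 to 12185451 in Sham-OVA and from 4324326 to 12355561 in PM-OVA. Replicate numbers are those of the sample titles. Among the OVA libraries, all but Sham-OVA replicate 1 carry another number or code in the library name. A single read was worth 0.311 RPM in Sham-OVA replicate 3, 0.133 in PM-OVA replicate 3 and 0.182 in PM-OVA replicate 4, the 3 shallowest libraries. Sham replicate 1 went against its label as female: it held 0.289 RPM of Xist, against 174 to 1618 RPM in the other 22 libraries, and it held Eif2s3y, a gene of the Y chromosome, at 54 RPM against 0 in all 22. The tissue marker Sftpc, which encodes a surfactant protein of alveolar cells, stood between 6490 and 31950 RPM in all 23 libraries. Every member was detected in every library, with the fewest reads, 7, for Cr2 in Sham-OVA replicate 3.

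Per kilobase of longest annotated transcript, Cd79b had the highest level of the 8 genes in every group and Cr2 the lowest. In Sham offspring the medians were 25.1 RPM per kb for Cd79b, 9.61 for Cd79a, 7.72 for Fcmr, 6.97 for Ms4a1, 6.16 for Fcer2a, 5.42 for Cd22, 2.94 for Pax5 and 1.71 for Cr2. The places of Cd79b, Pax5 and Cr2 held in all 7 Sham libraries and that of Cd79a in 6 of 7, whereas Fcmr exceeded Ms4a1 in 4 of 7 and Fcer2a exceeded Cd22 in 5 of 7. In Sham-OVA the median of Cd79b was 121 RPM per kb, and Cd79a, next in order, exceeded Fcmr in 2 of 5 libraries. The head and the foot of the order were thus the same with and without challenge.

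**Figure D1:**
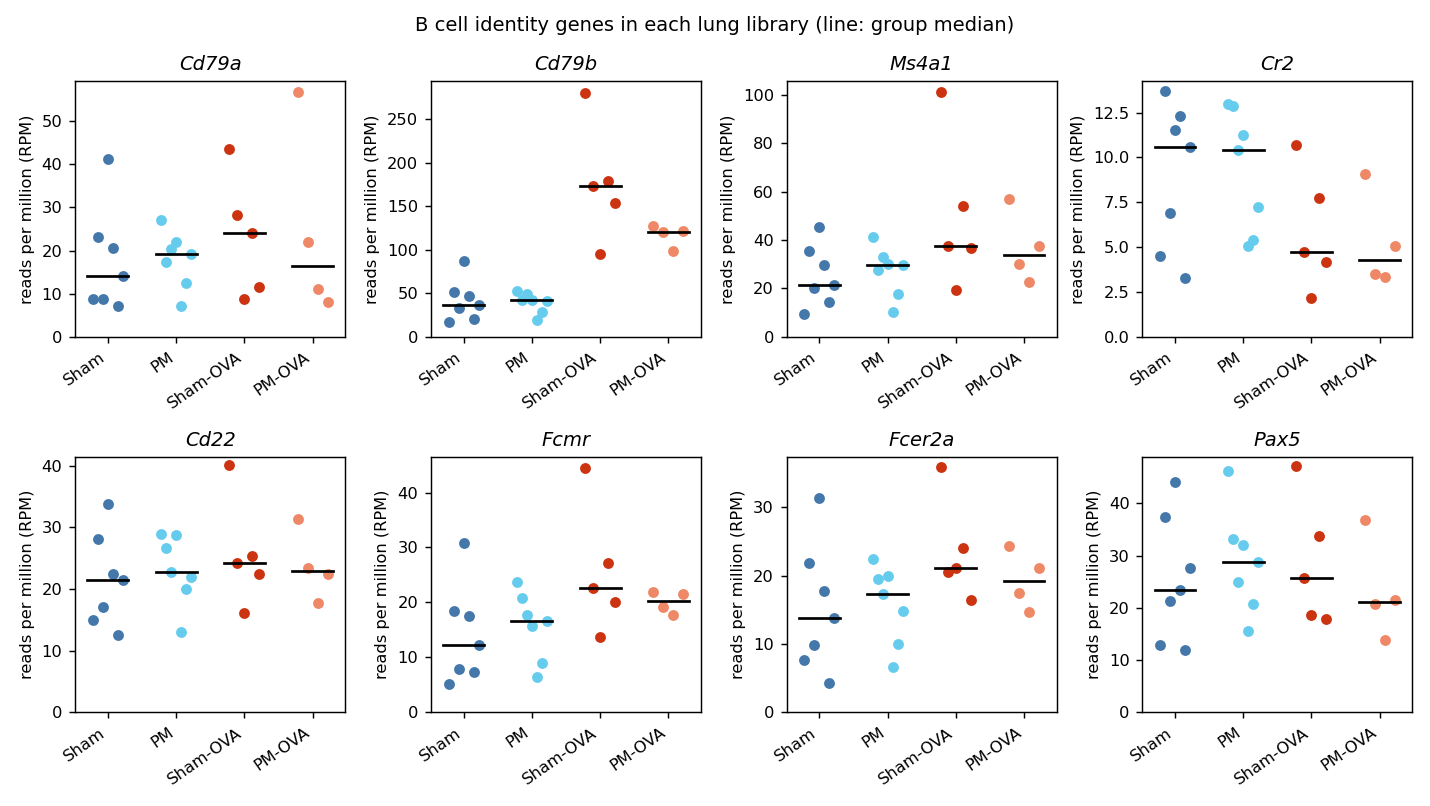
Level in RPM (vertical axis, linear from 0) of each B cell identity gene in each library, by group (horizontal axis), with 1 point per library and a line at the group median. For Cd79b the 9 OVA libraries lie between 94.8 and 281 RPM, above all 14 saline libraries, while for the other 7 genes the OVA and saline points overlap.

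OVA challenge was compared with saline within the offspring of each kind of dam. Cd79b rose in both, and it was the only member whose 9 OVA libraries lay wholly above the 14 saline libraries, as did 7.7% of all genes tested, while 0 of 8 lay wholly below, as did 20.3% of all genes. Within each cohort the same member, 1 of 8, lay wholly above and 0 wholly below, where 13.2% and 35% of all genes did in Sham and 13.3% and 28.6% in PM offspring. Fcmr also rose in Sham offspring and Cr2 fell in PM offspring, each close to the threshold of adjusted p 0.05 (limma on log2(RPM + 0.5), adjusted over all 16795 genes tested). In Sham offspring, 2 of the 8 members were called higher, where 20.6% of all genes tested were called higher, and 0 were called lower, where 47.5% of all genes were. None had an unadjusted p under 0.05 downwards, edgeR and DESeq2 called 0 lower too, and thinning to the shallowest library called Cr2 lower (adjusted p = 0.0413). In PM offspring, 1 of 8 was called higher, against 20.1% of all genes, and 1 of 8 lower, against 45.2%. The median log2 fold change of the 8 members was 0.61 in Sham and 0.24 in PM offspring, beside −0.48 and −0.43 for all genes tested.

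The signalling chains of the B cell receptor differed from each other. Cd79b stood at 16.3 to 87.2 RPM in Sham, with a median of 36, and at 281, 173, 94.8, 179 and 153 RPM in Sham-OVA replicates 1 to 5. In PM it stood at 19.7 to 52.7 RPM with a median of 41.8, and in PM-OVA at 128, 120, 98.2 and 122 RPM. All 9 OVA values lay above the highest saline value, 87.2 RPM in Sham replicate 4. The log2 fold change was 2.18 ± 0.36 (SE) in Sham (adjusted p = 9.59e-05) and 1.62 ± 0.24 in PM offspring (adjusted p = 0.000164), or 4.54-fold and 3.07-fold. Leaving out any single library left Cd79b called, at 1.99 to 2.39 in Sham and 1.47 to 1.70 in PM offspring.

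Cd79a, whose product pairs with that of Cd79b, did not pass the test in either cohort. It stood at 7.03 to 41.3 RPM in Sham, median 14, and at 43.5, 28.3, 8.7, 24.1 and 11.6 RPM in Sham-OVA replicates 1 to 5. It stood at 7.22 to 27.2 RPM in PM, median 19.2, and at 56.8, 22, 11 and 7.99 RPM in PM-OVA replicates 1 to 4. The groups overlapped. The SD of log2(RPM + 0.5) was 0.93 in Sham-OVA against 0.90 in Sham, and 1.22 in PM-OVA against 0.61 in PM. The log2 fold change was 0.41 ± 0.45 in Sham (adjusted p = 0.434) and 0.13 ± 0.47 in PM offspring (adjusted p = 0.823), with 95% intervals of −0.56 to 1.38 and −0.88 to 1.14. Without the 3 shallowest libraries it was 0.70 (adjusted p = 0.135) and 1.06 (adjusted p = 0.0613). In that fit PM-OVA holds only replicates 1 and 2, at 56.8 and 22 RPM.

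Ms4a1 encodes CD20, a surface protein that B cells carry from before maturity until they become plasma cells. Its Sham-OVA values were 101, 37.6, 19.3, 54.1 and 36.8 RPM, beside 9.58 to 45.3 RPM and a median of 21.4 in Sham. Its PM-OVA values were 56.8, 30.2, 22.4 and 37.4 RPM, beside 10.4 to 41.2 RPM and a median of 29.5 in PM. Of the OVA libraries, 4 of 5 and 3 of 4 lay above the median of their controls. The log2 fold change was 0.92 ± 0.40 in Sham (adjusted p = 0.0532) and 0.46 ± 0.34 in PM offspring (adjusted p = 0.25). In Sham offspring Ms4a1 passed without the 3 shallowest libraries, at 1.20 ± 0.35 (adjusted p = 0.00524).

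Of the co-receptors, Cr2 encodes complement receptors that lower the threshold of B cell receptor signalling and Cd22 encodes a sialic acid-binding lectin that dampens it. Cr2 stood at 10.7, 4.74, 2.18, 7.73 and 4.16 RPM in Sham-OVA replicates 1 to 5, beside 3.25 to 13.7 RPM and a median of 10.6 in Sham. In PM-OVA it stood at 9.07, 3.48, 3.32 and 5.08 RPM, beside 5.05 to 13 RPM and a median of 10.4 in PM. All 4 PM-OVA values were below the PM median, and 2 of them were below every PM value. Cr2 fell by 0.79 ± 0.33 on the log2 scale in PM offspring (adjusted p = 0.0485), and its log2 fold change in Sham was −0.59 ± 0.39 (adjusted p = 0.199). The call in PM offspring was lost without any 1 of 8 of the 11 libraries, PM replicates 1, 2, 3, 4 and 7 and PM-OVA replicates 2, 3 and 4, with adjusted p up to 0.146. Relative to the median of all genes tested, its difference was −0.11 in Sham and −0.37 in PM offspring, and with the trend of each library with transcript length and GC content removed it was 0.0077 in PM offspring (adjusted p = 0.984).

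Cd22 did not pass the test in either cohort. It stood at 40.1, 24.3, 16.2, 25.4 and 22.5 RPM in Sham-OVA beside 12.6 to 33.9 RPM in Sham, and at 31.4, 23.4, 17.8 and 22.5 RPM in PM-OVA beside 13.1 to 29 RPM in PM. Its medians lay between 21.5 RPM in Sham and 24.3 RPM in Sham-OVA, and all groups overlapped. Its log2 fold change was 0.26 ± 0.26 (adjusted p = 0.382) in Sham and 0.05 ± 0.22 (adjusted p = 0.855) in PM offspring, with 95% intervals of −0.29 to 0.81 and −0.43 to 0.53.

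The antibody receptors are encoded by Fcmr, the receptor for the constant part of IgM, and Fcer2a, the low-affinity IgE receptor CD23. Fcmr stood at 44.5, 22.6, 13.7, 27.1 and 20.1 RPM in Sham-OVA, beside 5.08 to 30.8 RPM and a median of 12.4 in Sham. All 5 Sham-OVA values lay above that median, and the ranges overlapped. In PM-OVA it stood at 22, 19.1, 17.7 and 21.6 RPM, beside 6.51 to 23.7 RPM and a median of 16.7 in PM, and 4 of 4 lay above the median. The log2 fold change was 0.94 ± 0.39 in Sham (adjusted p = 0.0443) and 0.45 ± 0.30 in PM offspring (adjusted p = 0.208). The call in Sham offspring was lost without any 1 of 8 of the 12 libraries, Sham replicates 1, 3, 6 and 7 and Sham-OVA replicates 1, 2, 4 and 5, with adjusted p up to 0.124. Without Sham replicate 1, the library that went against its label, it was 0.75 (adjusted p = 0.0882).

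Fcer2a did not pass the test. It stood at 35.8, 20.5, 21.1, 24.1 and 16.4 RPM in Sham-OVA, beside 4.36 to 31.3 RPM and a median of 13.8 in Sham. In PM-OVA it stood at 24.3, 17.5, 14.7 and 21.1 RPM, beside 6.69 to 22.4 RPM and a median of 17.3 in PM. All 5 Sham-OVA values and 3 of 4 PM-OVA values were above the median of their controls, inside overlapping ranges. The log2 fold change was 0.80 ± 0.38 (adjusted p = 0.0764) in Sham and 0.36 ± 0.30 (adjusted p = 0.304) in PM offspring.

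Pax5 stood at 47.2, 25.7, 18.6, 33.7 and 17.8 RPM in Sham-OVA, beside 11.9 to 44.1 RPM and a median of 23.5 in Sham. In PM-OVA it stood at 36.8, 20.7, 13.8 and 21.6 RPM, beside 15.6 to 46.3 RPM and a median of 28.7 in PM. Sham-OVA values lay inside or just above the Sham range, and 3 of 4 PM-OVA values were below the PM median. Its log2 fold change was 0.20 ± 0.33 (adjusted p = 0.603) in Sham and −0.32 ± 0.29 (adjusted p = 0.356) in PM offspring.

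**Figure D2:**
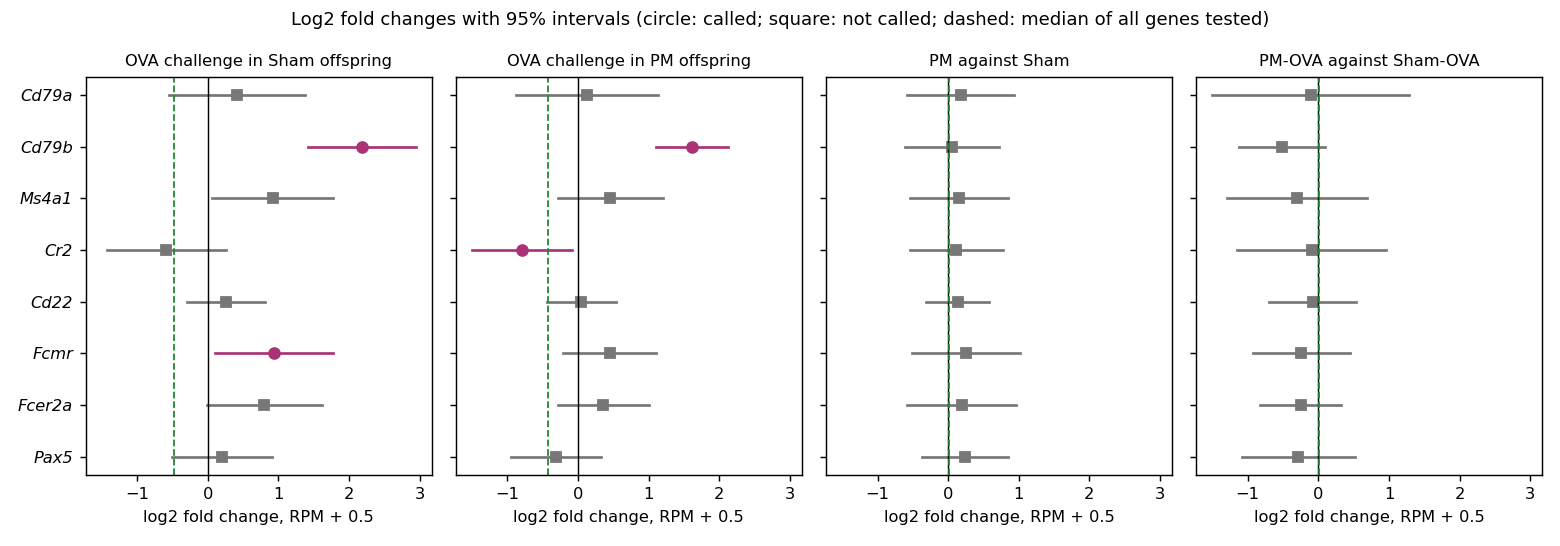
Log2 fold change of each gene on log2(RPM + 0.5) (horizontal axis) with its 95% interval, in 4 comparisons, with circles for called genes, squares for the others and a dashed line at the median of all genes tested. Cd79b stands at 2.18 and 1.62 under OVA challenge, and no interval in the comparisons of PM with Sham or PM-OVA with Sham-OVA excludes 0.

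These calls depended on how libraries were scaled, and the median gene was at −0.48 in Sham and −0.43 in PM offspring. With median-of-ratios scaling 5 members were called higher in Sham (Cd79b, Ms4a1, Cd22, Fcmr and Fcer2a) and 4 in PM offspring (Cd79b, Ms4a1, Fcmr and Fcer2a), and none lower. Under that scaling 4903 of the 11310 genes called in Sham offspring were higher, against 3453 of 11431 with RPM, and in PM offspring 4862 of 10865 against 3379 of 10968. Cd79b alone was called in both cohorts under each of the 17 settings tried at this threshold in which it was fitted, between 1.54 and 2.55 in Sham and between 0.98 and 1.98 in PM offspring.

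Ratios between members within a library do not depend on the scaling of libraries, and they are given as a description because they were chosen after the values were seen. The ratio of Cd79b to Ms4a1 was 1.28 to 1.92 in the 14 saline libraries and 2.25 to 4.92 in the 9 OVA libraries, with no overlap. In Sham-OVA replicates 1 to 5 it was 2.77, 4.60, 4.92, 3.31 and 4.17, and in PM-OVA replicates 1 to 4 it was 2.25, 3.97, 4.38 and 3.25. The ratio of Cd79b to Cd79a was 1.87 to 3.72 under saline and 2.25 to 15.2 under OVA, where 8 of 9 libraries lay above every saline library and PM-OVA replicate 1, at 2.25, did not. Each OVA library held more Cd79b per Ms4a1 than any saline library, and all but 1 held more Cd79b per Cd79a.

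Cr2 differed the other way relative to the other members. The ratio of Cr2 to Ms4a1 was 0.227 to 0.494 under saline and 0.106 to 0.16 under OVA, with no overlap. In Sham-OVA it was 0.106, 0.126, 0.113, 0.143 and 0.113, and in PM-OVA it was 0.16, 0.115, 0.148 and 0.136. The ratio of Cr2 to Fcer2a, another gene of mature B cells, was 0.369 to 0.767 under saline and 0.103 to 0.374 under OVA, with 8 of 9 OVA libraries below every saline library. Among all 28 pairs of members, 7 had ratios that did not overlap between saline and OVA libraries, and each of the 7 had Cd79b as its higher or Cr2 as its lower member. How many pairs of other genes had ratios without overlap was not computed, so this count has no background to be read against. Of all single genes tested, 7.7% lay wholly above and 20.3% wholly below the saline libraries under OVA. The longest transcript of Cr2 has 6212 bases with 41.4% GC and that of Cd79b 1431 bases with 54.2% GC, and ratios between genes that differ so can move with a library's length and GC trend. Ms4a1, with 3075 bases and 40.6% GC, is close to Cr2 in GC content but not in length, and Cd79a, with 1457 bases and 54.9% GC, is close to Cd79b in both. With that trend removed from each library, the log2 fold change of Cr2 was no longer negative in either cohort, while Cd79b was still called in both. The ratios themselves were not recomputed with the trend removed.

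**Figure D3:**
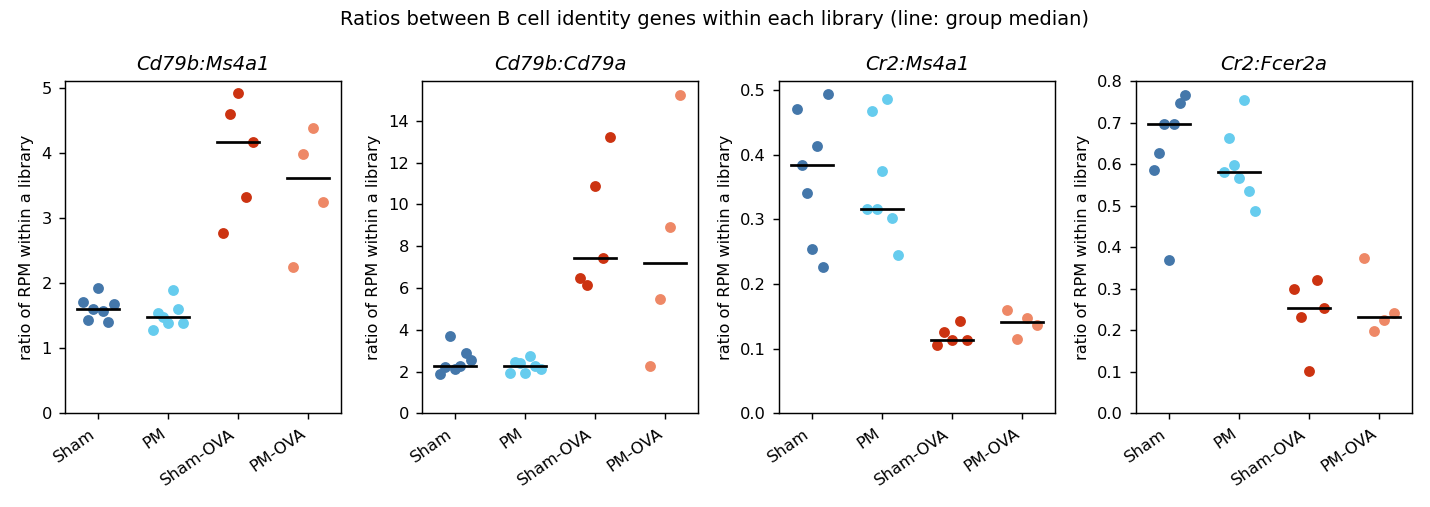
Ratio of the RPM of 2 members within a library (vertical axes, linear from 0) by group, with 1 point per library and a line at the group median. The ratio of Cd79b to Ms4a1 lies at 2.25 or above in the 9 OVA libraries and at 1.92 or below in the 14 saline libraries, and the ratio of Cr2 to Ms4a1 lies at 0.16 or below against 0.227 or above.

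The members varied widely between saline libraries and rose and fell together. In Sham the highest library exceeded the lowest by 2.7-fold for Cd22 and by up to 7.17-fold for Fcer2a. The SD of log2(RPM + 0.5) in Sham was 0.49 for Cd22 and 0.70 to 0.92 for the other 7, where the median gene tested had 0.26. In PM the SD was 0.39 to 0.65 against a median of 0.20. Sham replicates 1 and 6 held the 2 lowest values of all 8 genes, Sham replicate 4 the highest of 7 of them, PM replicate 5 the lowest of all 8 and PM replicate 1 the highest of all 8. Summed over the 8 genes, the saline libraries ran from 79.9 to 325 RPM and the OVA libraries from 195 to 604 RPM.

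As a description over 14 saline libraries, with each gene centred in its group, Pearson's r between pairs of members ran from 0.84 (Cd79a with Cr2) to 0.98 (Cd22 with Fcer2a), with a median of 0.92 over 28 pairs. Over the 9 OVA libraries it ran from 0.64 (Cd79a with Fcer2a) to 0.98 (Ms4a1 with Cd22), with a median of 0.86. Points of a library share its depth: the mean centred level of the members had r = −0.11 with log2 reads over the saline libraries and r = 0.71 over the OVA libraries. Other lists moved with the members in the saline libraries too. For T cell genes r with the members was 0.88, for NK cell genes 0.77 and for lung tissue genes 0.15, and over the 9 OVA libraries it was 0.92, 0.53 and −0.85. Summed over 10 genes, the T cell list ran from 97.2 to 212 RPM under saline, from 145 to 306 RPM in Sham-OVA and from 143 to 225 RPM in PM-OVA, and none of its genes was at 0 throughout. The part of T cell content, depth and lung tissue content in the members' spread was not tested.

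**Figure D4:**
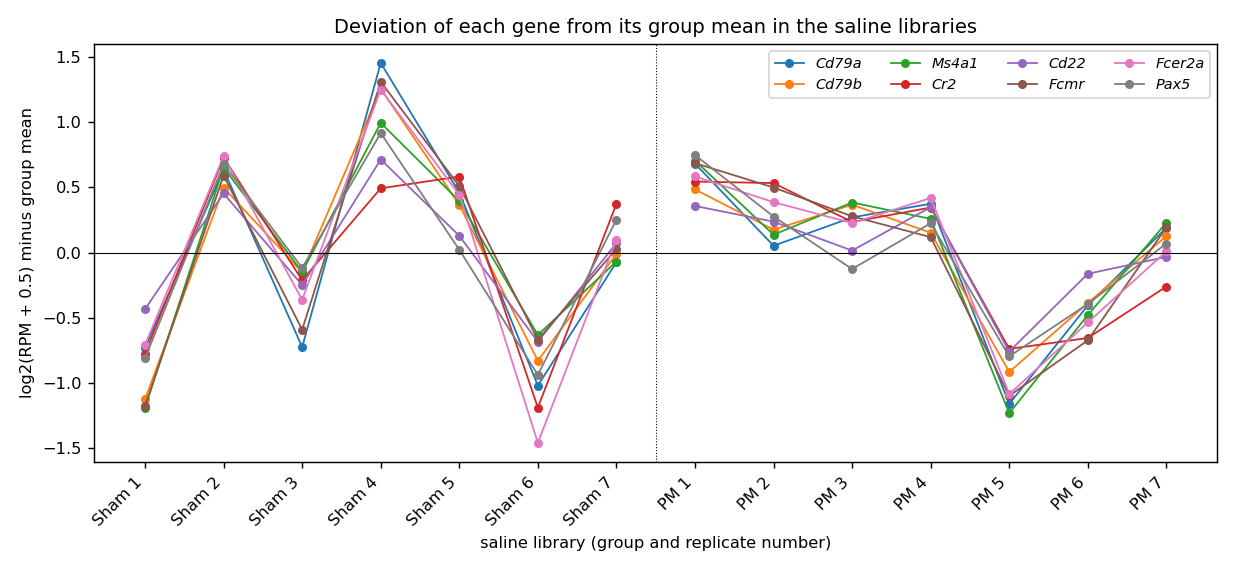
Deviation of log2(RPM + 0.5) from the group mean (vertical axis) for the 8 genes in the 7 Sham and 7 PM libraries (horizontal axis), with 1 line per gene. The 8 lines run together, low in Sham replicates 1 and 6 and PM replicate 5 and high in Sham replicate 4, which held the highest Sham value of 7 of the 8 genes.

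The 5 other genes most like the mean of the members over 23 libraries, after centring in each group, were Spib (r = 0.96), Bank1 (r = 0.95), Gpr174 (r = 0.94), Stap1 (r = 0.93) and Pou2f2 (r = 0.93). Spib encodes a transcription factor of B cells and plasmacytoid dendritic cells, and Bank1 an adaptor of B cell receptor signalling. Without centring, Bank1 (r = 0.93), Spib (r = 0.93), Pacsin1 (r = 0.88) and Gpr18 (r = 0.88) were among the most like.

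Maternal exposure was compared in the same way, with the caveat that these comparisons use the same libraries as those of OVA challenge. No member was called in PM against Sham, PM-OVA against Sham-OVA or the interaction of exposure and challenge by limma, edgeR or DESeq2, and 0 members had an unadjusted p under 0.05 by limma. Of all genes tested, 0% were called by limma in each, with 731, 313 and 854 of 16795 genes at an unadjusted p under 0.05, and DESeq2 called 0, 1 and 2 genes and edgeR 0 in each. The interaction called 4616 genes with array weights and 724 without the 3 shallowest libraries, with 0 members among them in both. Log2 differences of the members in PM against Sham ran from 0.05 (Cd79b) to 0.25 (Fcmr), and their 95% intervals from −0.61 to 1.01. Without Sham replicate 1 they ran from −0.14 to 0.10.

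Under challenge the log2 differences of PM-OVA from Sham-OVA ran from −0.51 (Cd79b) to −0.08 (Cd22), with 95% intervals that reached from −1.50 to 1.29, and that of Cd79a turned to 0.53 without the 3 shallowest libraries. Cd79b, with the lowest p of the 8 in this comparison (unadjusted p = 0.09, adjusted p = 1), was below the Sham-OVA median of 173 RPM in 4 of 4 PM-OVA libraries, while Sham-OVA replicate 3, at 94.8 RPM, was lower still. Without the 3 shallowest libraries its difference was −0.62 ± 0.24 (adjusted p = 0.234). In the interaction the log2 values ran from −0.21 to −0.56, again with 95% intervals that included 0 for every member. The intervals of PM-OVA against Sham-OVA reach beyond a log2 difference of −1 for Cd79a, Cd79b, Ms4a1, Pax5 and Cr2, so equal levels are not shown.

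Other genes of the B lineage were read from lists compiled by function, with the number of genes called in each direction. Of all genes tested, 20.6% were called higher and 47.5% lower in Sham, and 20.1% and 45.2% in PM offspring. Of 10 further B cell transcription factor genes, 6 were called higher and 2 lower in Sham offspring, and 2 higher and 2 lower in PM offspring. Pou2af1, which encodes a coactivator of octamer-binding factors, rose by 2.17 ± 0.41 in Sham and 1.61 ± 0.37 in PM offspring. Bach2, a repressor that holds back plasma cell differentiation, fell by 2.33 ± 0.41 and 2.29 ± 0.32. Its median fell from 47.8 to 10 RPM with challenge of Sham offspring and from 49.8 to 8.08 RPM with challenge of PM offspring. Both genes passed the test in both cohorts.

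Of 11 genes that carry the signal of the B cell receptor, 7 were called higher and 1 lower in Sham, and 5 higher and 2 lower in PM offspring. Blnk, the adaptor that links the receptor's kinases to downstream signalling, rose by 4.08 ± 0.23 and 3.65 ± 0.22, from a median of 4.87 to 96.6 RPM in Sham and from 5.27 to 64.7 RPM in PM offspring. Pik3ap1, an adaptor for phosphoinositide 3-kinase, fell by 1.45 ± 0.32 and 1.63 ± 0.34. All 6 genes that inhibit the receptor were called higher in both cohorts, with the largest rise for Cd72, 2.48 ± 0.30 and 2.25 ± 0.34. Several of these genes, Blnk, Fcgr2b and Ptpn6 among them, are also expressed in myeloid cells, and the leukocyte list rose in the same libraries. It had 3 of 4 genes called higher in each cohort, its sum ran from 378 to 778 RPM under saline and from 1224 to 2400 RPM under OVA, and Cd52 rose by 3.88 ± 0.26 and 3.27 ± 0.20. What part myeloid cells have in the lists of receptor signalling and inhibition was not tested.

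Of 16 B cell surface and homing genes, 7 were called higher and 3 lower in each cohort. Ly86, which encodes the partner of the Toll-like receptor homologue CD180, rose by 3.18 ± 0.24 and 2.69 ± 0.22, and Ccr6, a chemokine receptor, fell by 2.30 ± 0.24 and 1.99 ± 0.40. Ccr6 was at 0 in all 5 Sham-OVA libraries, against 0.984 to 3.12 RPM in Sham, so its fitted change depends on the pseudocount. What part cells other than B cells have in the levels of Ly86 and the rest of this list was not tested. Of 9 genes of B cell survival and help, 7 were called higher in Sham and 6 in PM offspring, and none lower. Ltb, which encodes a cytokine chain needed to organise lymphoid tissue, rose by 2.24 ± 0.34 and 1.54 ± 0.20.

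Plasma cell genes had larger fold changes than the identity genes, a difference that was not tested. Of 10 such genes, 8 were called higher and 1 lower in each cohort, with median log2 fold changes of 3.69 in Sham and 3.45 in PM offspring. Mzb1, which encodes a chaperone of immunoglobulin secretion, rose by 8.04 ± 0.23 and 7.72 ± 0.37, from 2.63 to 10.7 RPM under saline to 1519 to 2924 RPM in Sham-OVA and 661 to 2379 RPM in PM-OVA. Sdc1, the syndecan that marks plasma cells and is also made by epithelium, fell by 1.66 ± 0.25 and 1.42 ± 0.35. The only immunoglobulin gene analysed here, Iglc2, rose by 7.10 ± 0.34 and 6.13 ± 0.44, from 1.10 to 7.61 RPM under saline to 335 to 862 RPM in Sham-OVA and 128 to 715 RPM in PM-OVA. Summed plasma cell genes stood at 558 to 795 RPM in the saline libraries and at 7169 to 13330 RPM in the OVA libraries, whereas the sums of the 8 identity genes overlapped.

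**Figure D5:**
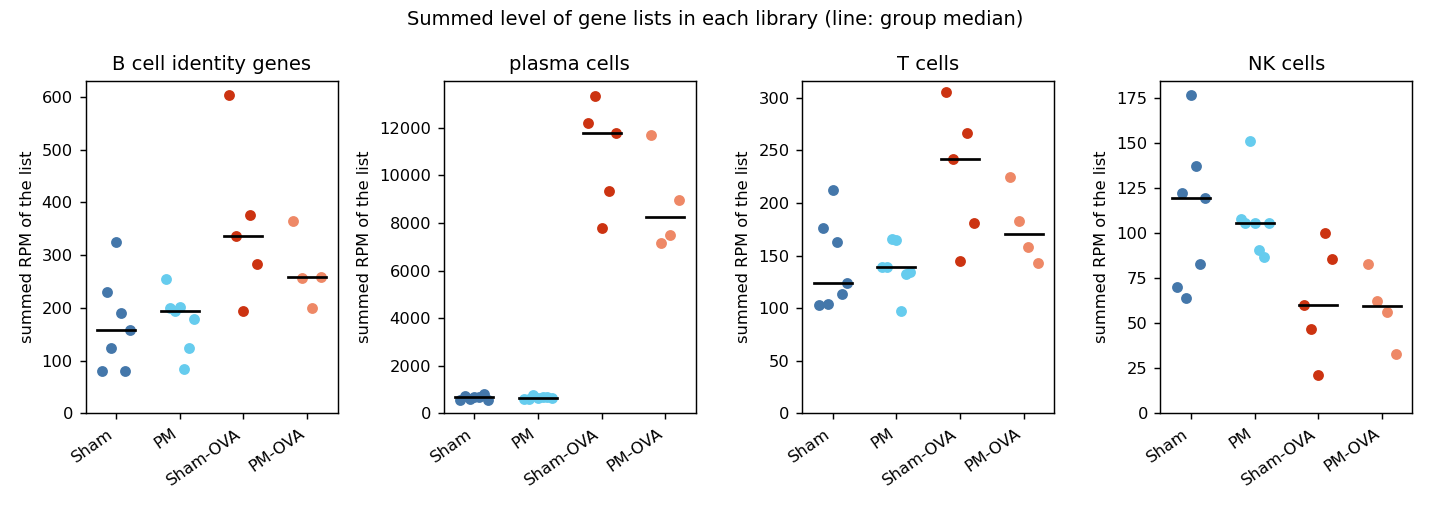
Summed RPM of the 8 B cell identity genes and of the lists of plasma cell, T cell and NK cell genes (vertical axes, linear from 0) by group, with 1 point per library and a line at the group median. The plasma cell sums of the OVA libraries start at 7169 RPM, above the highest saline sum of 795 RPM, while the identity gene sums of 195 to 604 RPM under OVA overlap those of 79.9 to 325 RPM under saline.

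Germinal centre genes were called in both directions. Of 7 tested, 2 were called higher and 2 lower in Sham, and 2 higher and 3 lower in PM offspring. Of all genes tested, 47.5% and 45.2% were called lower. With the length and GC trend removed and medians set equal, 3 of the 7 were called higher and 0 lower in Sham offspring. In PM offspring 2 were then called higher and 1 lower. Mybl1, a transcription factor of germinal centre B cells, fell by 1.15 ± 0.34 and 1.44 ± 0.39, a call that was lost with the trend of length and GC content removed. Of the genes of lymphoid stroma and high endothelial venules, Cxcl13, the chemokine that draws B cells into follicles, rose by 1.67 ± 0.50 in Sham and had a log2 fold change of 0.51 ± 0.39 in PM offspring (adjusted p = 0.263). Chst4, a sulphotransferase of high endothelial venules, fell by 1.96 ± 0.35 and 1.59 ± 0.42, and Ccl19 and Ccl21a were at 0 in all 23 libraries. Of 8 genes of B cell precursors and thymocytes, only Vpreb3 passed the filter on low values, and it rose by 1.74 ± 0.39 and 2.62 ± 0.33. The authors list Vpreb3 among genes selectively expressed by lung epithelial cells. Its r with the members was 0.36 over the 14 saline libraries and −0.79 over the 9 OVA libraries. Which cells hold Vpreb3 here was not tested. Vpreb2 and Ptcra, which mark B cell precursors and immature T cells, were at 0 in all libraries. How reads that match several places were counted was not stated. Values of 0 here, also those of Ccl19 and Ccl21a, thus do not show absence.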

How the data were processed

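RNA-Seq libraries of 23 lungs were analysed, 14 from saline and 9 from OVA-challenged offspring, with groups taken from the treatment in the labels. The authors prepared stranded mRNA libraries, trimmed single-end reads (Trimmomatic 0.39), aligned them to GRCm38 (Bowtie2 2.5.1, which does not split reads over splice junctions) and quantified genes in SeqMonk 1.48.1. The deposited table is named after RPKM, for which the test was planned, but its values are RPM as deposited: 99.9943% to 100% of the values in a library came to whole reads (tolerance 0.01 read), whatever the gene's length. Reads were recovered on that basis. Ptp4a1 is listed 2 times.

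The filter required 0.5 RPM or more in 4 or more of the 23 libraries and left 16795 genes, all 8 members included. These were tested on log2(RPM + 0.5) by limma 3.58.1 (R 4.3.3, variance trend) in the groups compared, or in all 4 groups for the interaction. Tests were two-sided with Benjamini-Hochberg adjustment over all genes tested, and an adjusted p under 0.05 was called. Fold changes on this scale understate those of low genes. The fits were tested on simulated counts before use.

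The members and the gene lists were chosen with earlier results of these data known. Besides the 8 members, the text names the gene with the largest rise and fall among those called in Sham offspring in each list, defining markers at 0, and the 5 genes most correlated with the members' mean, centred and uncentred. Some genes that this rule picks are not reported here. Fcgr2b, Ptpn6, Xist and Eif2s3y were named outside that rule. Alternatives were other pseudocounts, filters, scalings, fits and thresholds, a replicate block, thinning to 3218603 total reads, the recovered reads in edgeR 4.0.16 or DESeq2 1.42.0, and leaving out each library. Added after seeing the data were removal of each library's trend with length and GC content of transcripts, alone or with medians set equal, and leaving out the 3 shallowest libraries. The last of these leaves only replicates 1 and 2 in PM-OVA. No 2 libraries of a group agreed within sampling noise (chi-square per gene of at least 7.2).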

Additional observations from a re-analysis of the deposited data

Results flagged for a closer look

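No value of a B cell identity gene was flagged as an outlier of its group. In each of 32 sets of values (8 genes in 4 groups of 4 to 7 libraries) the gap of the highest and of the lowest library to its neighbour, divided by the range, stayed below Dixon's 95% critical value. In groups this small the check flags only extreme gaps. Cd79a in PM-OVA replicate 1, at 56.8 RPM, was not flagged beside 7.99 to 22 RPM in the rest of its group.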

How the results depend on the processing

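The count of 2 called members in each OVA comparison rested on values near the threshold, and Cd79b was the one member called in both cohorts with each setting tried at an adjusted p under 0.05. In Sham offspring the count was 1 with no filter on low values or with the replicate block, 4 with all 4 groups in one fit or with thinning to the shallowest library, 5 with median-of-ratios scaling, quantile normalisation, DESeq2 or edgeR, and 6 with the length and GC trend removed and medians set equal. The calls over all genes moved too: 3453 of 16795 were higher in Sham offspring with limma on log2(RPM + 0.5). They numbered 4903 with median-of-ratios scaling, 5484 with quantile normalisation, 5362 with DESeq2, 5584 with edgeR and 5255 with the trend removed and medians equal. In PM offspring the count of members was 1 with no filter, with all 4 groups in one fit, with thinning, with the length and GC trend removed, or without the 3 shallowest libraries, and 4 with median-of-ratios scaling, quantile normalisation, DESeq2, or the trend removed and medians set equal. Under those last 4 settings 4862, 5288, 5323 and 4955 of all 16795 genes were called higher in PM offspring, against 3379 with limma on log2(RPM + 0.5). The count of members was 0 in both cohorts at the stricter threshold (adjusted p of 0.000001, log2 change of 1 either way), where 758 and 48 genes were called instead of 11431 and 10968. Leaving out 1 library at a time gave 1 to 4 in Sham and 1 to 2 in PM offspring. Of the values of single members under the alternatives, 646 kept direction and call, 40 gained a call, 19 lost one and 39 turned direction. Of these 39, only Pax5 in PM offspring was called after turning (0.69, adjusted p = 0.0283, trend removed and medians set equal), and only Cr2 in PM offspring had been called before (0.0077 with the trend removed, 0.42 with medians also set equal). In Sham offspring Cd79a turned to -0.25 with the trend removed, and Cr2 to 0.17 and, with medians also set equal, 0.59. In PM offspring Pax5 turned to 0.039 with median-of-ratios scaling, 0.095 with quantile normalisation, 0.045 with DESeq2, 0.040 with edgeR, 0.28 with the trend removed and 0.014 without the 3 shallowest libraries. Also in PM offspring, Cd79a turned to -0.64 and Cd22 to -0.25 with array weights, Cd79a to -0.22, Cd22 to -0.19 and Fcer2a to -0.045 with the replicate block, Cd79a to -0.55 and Fcmr to -0.10 with the trend removed, and Cd79a to -0.13 with medians also set equal. In PM against Sham, Cr2 turned to -0.060 with array weights and with thinning, and Cd79b to -0.079 with DESeq2 and -0.082 with edgeR. With thinning Cr2 turned to 0.015 in PM-OVA against Sham-OVA and 0.076 in the interaction, and without the 3 shallowest libraries Cd79a turned to 0.53 and 0.36. Leaving out 1 library gave ranges across 0 for Cd79a (-0.41 to 0.51) and Cd22 (-0.091 to 0.18) in PM offspring, for Cd79b (-0.14 to 0.26), Ms4a1 (-0.046 to 0.36), Cr2 (-0.085 to 0.24) and Fcer2a (-0.052 to 0.40) in PM against Sham, for Cd79a (-0.64 to 0.27), Cd22 (-0.23 to 0.096) and Cr2 (-0.38 to 0.15) in PM-OVA against Sham-OVA, and for Cd79a (-0.82 to 0.098) and Cr2 (-0.49 to 0.036) in the interaction.

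Among the other lists, no gene named turned direction under 2 scalings and 2 trend corrections, but Cd8a lost its call under both scalings and with the trend removed and medians set equal, Sftpc under quantile normalisation, and Mybl1, Ccr9, Klk1 and Sftpc under trend removal. No member was called for maternal exposure or the interaction under any of these settings, while the interaction called 4616 genes with array weights and 724 without the 3 shallowest libraries, against 0.

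The pairing of same-numbered libraries was checked by the correlation of their deviations from group means, which was -0.067 to 0.12 over 5 pairs of Sham and Sham-OVA, -0.10 to 0.063 over 4 of PM and PM-OVA, -0.25 to 0.10 over 7 of Sham and PM, and -0.31 to 0.62 over 4 of Sham-OVA and PM-OVA, where 3 of the 4 were over 0.1. No comparison had every pair over 0.1. The check used the numbers of the sample titles and cannot tell whether samples share a litter or a batch, which was not tested. With the replicate block, 10025 genes instead of 11431 were called in Sham and 7982 instead of 10968 in PM offspring, and members went from 2 to 1 in Sham. Depth limits Cr2 most, with 7 to 154 reads in the OVA libraries. The cause of these changes was not tested.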

Other observations

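T cell genes had median log2 fold changes of 0.52 in Sham and 0.24 in PM offspring, beside 0.61 and 0.24 for the B cell identity genes, and NK cell genes −1.20 and −1.33. Of 10 T cell genes, 3 were called higher and 1 lower in Sham, and 2 higher and 1 lower in PM offspring. Cd4, the co-receptor of helper T cells, rose by 1.66 ± 0.21 and 1.18 ± 0.15, and Cd8a, of cytotoxic T cells, fell by 0.75 ± 0.22 and 0.75 ± 0.26. With median-of-ratios scaling 7 of the 10 were called higher and 0 lower in Sham offspring. Of 6 NK cell genes, 5 were called lower in Sham and 6 in PM offspring, with Klre1, an inhibitory lectin-like receptor, falling by 1.46 ± 0.38 and 1.74 ± 0.33. Plasmacytoid dendritic cells share Spib with B cells. Of their 4 listed genes, 1 was called higher and 1 lower in each cohort: Klk1 rose by 1.35 ± 0.41 and 1.02 ± 0.36, and Ccr9 fell by 1.23 ± 0.38 and 1.18 ± 0.32.

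All 4 eosinophil genes were called higher in both cohorts. Prg2, the major basic protein, stood at 0 to 0.26 RPM under saline and at 3.73 to 16.4 RPM in Sham-OVA and 5.11 to 9.08 RPM in PM-OVA. Among 5 lung tissue genes, 2 were called higher in Sham and 1 in PM offspring, with the largest rise for Sftpc, 1.19 ± 0.27 and 1.14 ± 0.34.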
